A study of Mus musculus with 4 samples.

Results

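The genes described here are 49 members of the BMP and TGF-beta pathway, given as a list of names with no threshold on values, although with earlier results of these data known, out of 53465 genes counted. All 49 matched a single gene, and they fall into 15 ligands (with the protease Bmp1 placed there by its name), 11 receptors and co-receptors, 7 antagonists, 4 latent TGF-beta binding proteins (LTBPs), 8 SMADs and the 4 ID target genes. They were counted in 4 RNA-seq libraries made from Fgf10-positive cells, sorted out of the submandibular gland (a major salivary gland) of C57BL/6J mice. The adult libraries (2) came from mice taken at postnatal day 60 after tamoxifen at days 57/58, and the pup libraries (2) from mice taken at postnatal day 7 after tamoxifen at days 4/5, with a tamoxifen dose of 0.1 mg per g throughout. Both ages carried the genotype Fgf10CreERT2:Rosa26Tomato fl/fl, in which a tamoxifen-activated Cre under Fgf10 control switches on a Tomato reporter. The labelled cells are therefore those that expressed Fgf10 around the time of tamoxifen and their descendants, and samples of this genotype alone were analysed here. Nothing in the labels says that replicates were separate animals. The p-values below thus measure the spread among these libraries alone, and that spread may be technical.

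BMPs, activins and TGF-betas are secreted dimers of one superfamily. They bring together type I and type II receptor kinases, which phosphorylate SMAD proteins: SMAD1, SMAD5 and SMAD9 mainly downstream of BMPs, SMAD2 and SMAD3 downstream of TGF-beta and activin, with SMAD4 as the common partner and SMAD6 and SMAD7 as inhibitors. Antagonists such as noggin, chordin and follistatin bind ligands outside the cell, LTBPs tether TGF-beta to the matrix, and the ID genes are widely used as readouts of BMP signalling. In developing salivary glands the pathway is known for its part in branching and in the exchange between mesenchyme and epithelium.

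The libraries differed in depth and in quality. Counts over genes came to 13791730 and 16585518 in the adults and to 7289792 and 21490686 in pup replicates 1 and 2. Pup replicate 1 stood apart. Of its tallied reads, 76.7% fell in no counted feature, against 9.70% to 10.6% in the other libraries. A count was seen in it for 96.5% of 1134 olfactory receptor genes, against 1.59% to 7.67% in the others. This low count over nearly all genes is called background below, and its size for a gene was estimated as the olfactory receptor counts per kb of exon times the exon length of that gene. For 5 members, Bmp2, Inhbb, Grem1, Nog and Smad9, the count in pup replicate 1 was at or under that estimate, and for 12 members the estimate was over 50% of the count. The sort was checked with marker lists. CPM are counts relative to the library's total over genes that passed the filter on low counts, scaled with edgeR's TMM factors throughout. The 6 ionocyte markers reached a sum of 6154 and 4151 CPM in adult cells, against 148 and 191 CPM in pup cells. The 7 fibroblast markers summed to 1117 and 21837 CPM in adult replicates 1 and 2, against 25494 and 58107 CPM in the pups, so the adult libraries differed from each other in fibroblast RNA. General epithelial markers (7) summed to 8272 and 12558 CPM in adults, against 1473 and 3452 CPM in pups, and basal and myoepithelial markers (7) to 5127 and 2180 CPM in adults, against 4898 and 14222 CPM in pups. The 7 endothelial markers summed to 0.0766 CPM in adult replicate 1, where 6 of the 7 were at 0, and to 852 CPM in adult replicate 2, against 115 CPM in pup replicate 1, of which background made up an estimated 52.3 CPM, and 7.30 CPM in pup replicate 2. In such bulk samples, fewer cells of a type and less RNA per cell cannot be told apart.

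Most members lay lower in adult than in pup cells, and a few stood out on each side. Bmp3, Ltbp2 and Id1 were each about 2 log2 units higher in adult cells. Bmp1, Bmp7, Inha, Tgfbr3, Fst, Fstl1 and Smad3 were 1.91 or more log2 units lower in adult cells. Of the 46 members tested, 11 had a positive and 35 a negative log2 fold change, adult over pup, and their median was -0.66, against -0.24 over all 16320 genes tested; of the positive ones, Bmpr2 and Ltbp4 turned negative under other scalings. The members' median minus that of all genes was -0.43, and it ranged from -1.04 without adult replicate 2 to -0.16 without pup replicate 2; with no filter beyond 1 count, which lets 45490 genes in, it was 2.91. A negative fold change was found for 76.1% of tested members, against 57.1% of all genes tested. Both adult libraries lay below both pup libraries for 19 members (41.3%), against 27.1% of all genes tested. Both adult libraries lay above both pup libraries for 5 members (10.9%), against 21.8% of all genes tested. The other 22 members overlapped between the ages. In 9 of the tested members (19.6%, against 7.57% of all genes tested) the libraries stood in the order of the fibroblast marker sum, with adult replicate 1 lowest and pup replicate 2 highest: Bmp1, Bmp4, Bmp7, Tgfbr3, Fstl1, Fstl3, Smad3, Smad6 and Smad7. The part of fibroblast RNA in these was not tested.

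No single member passed the main test, the quasi-likelihood F test of edgeR with an adjusted p under 0.05. It called 0 members and 0 genes in either direction (0% of all genes each way), and the smallest adjusted p was 0.141 over all genes and 0.213 among the members. At an unadjusted edgeR p under 0.05, 3 members were higher and 7 lower in adult cells, that is 6.52% and 15.2% of those tested, against 5.99% and 8.49% of all genes. DESeq2, run as an alternative on the same genes, called 3 members higher and 7 lower in adult cells, against 3.74% and 5.28% of all genes, and limma-voom called 0 members (0% of all genes). The DESeq2 calls are the 10 genes named above, and 9 of them were also among the 10 with an unadjusted edgeR p under 0.05. With 2 libraries against 2, an exact two-sided permutation test cannot go below 0.33. Leaving out adult replicate 2, edgeR called 6 members lower in adult cells (Bmp4, Bmp7, Gdf10, Eng, Chrdl1 and Smad3), or 13.0% of those tested, against 4.49% of all genes, and 0 members higher, against 1.51% of all genes. That fit sets 1 adult library, the one with the least fibroblast and endothelial RNA, against both pups, so its spread comes from the pups alone. In it the members' median log2 fold change was -1.46, against -0.42 over all genes. In the matching fit without adult replicate 1 it was -0.51, against -0.24 over all genes. Whichever single library was left out, 13 members kept a log2 fold change of at least 1 in the same direction. On the higher side these were Bmp3, Ltbp2 and Id1. On the lower side they were Bmp1, Bmp7, Inha, Acvr1, Acvr2a, Tgfbr3, Chrd, Fst, Fstl1 and Smad3, of which Chrd overlapped between the ages once background was subtracted. The matching share of all genes tested was not counted, so the 13 are no more than a description of single genes.

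**Figure D1:**
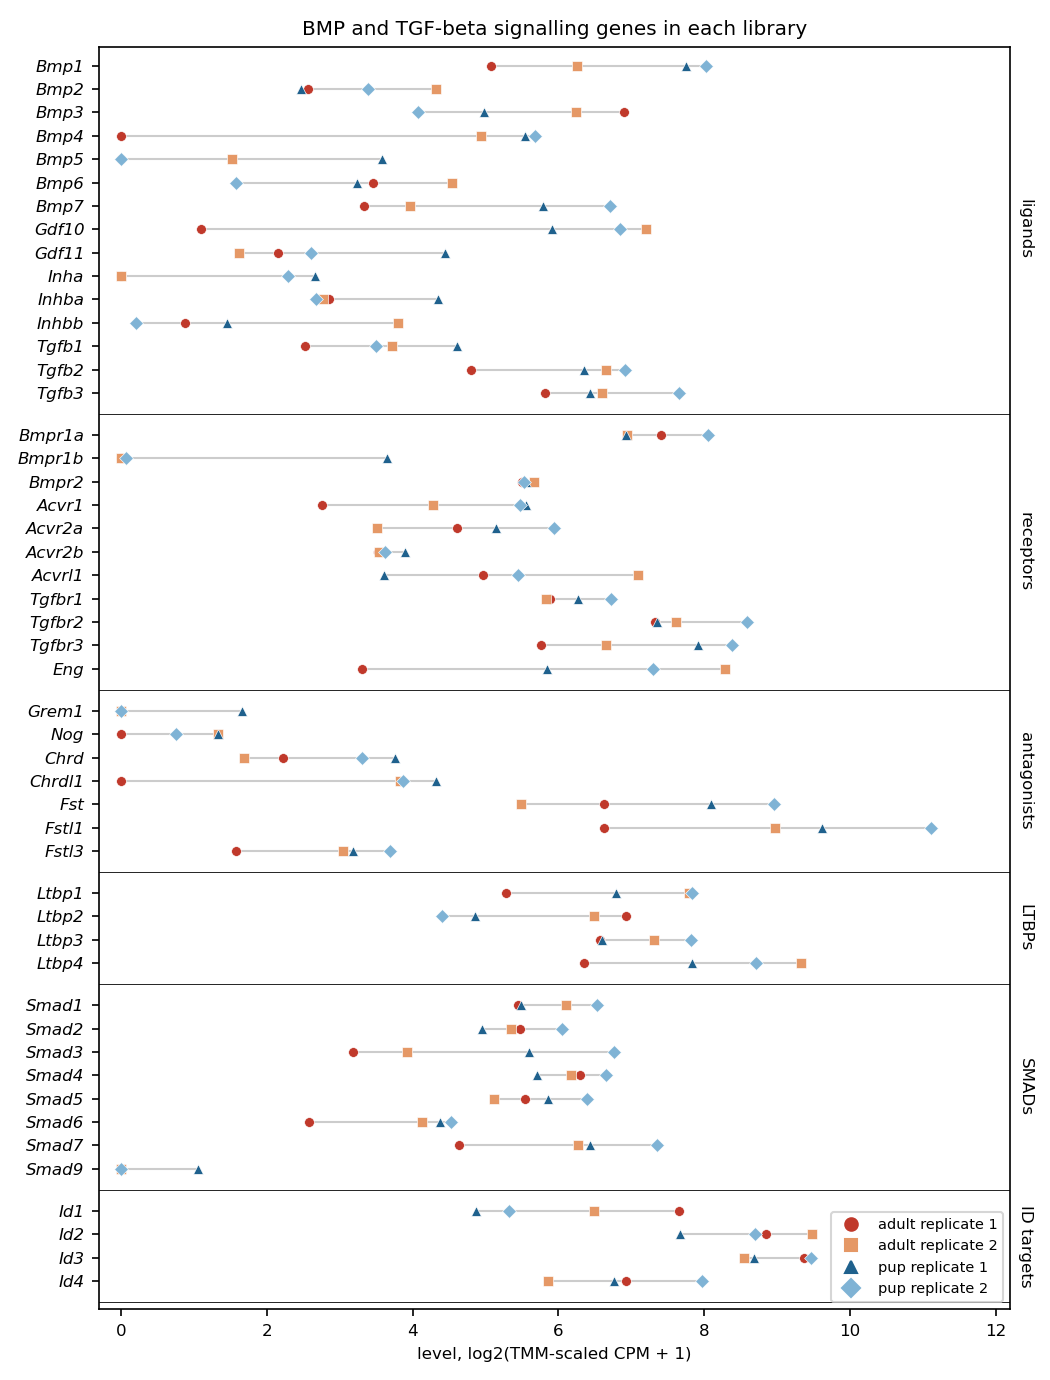
TMM-scaled CPM of the 49 members in each library, as log2(CPM + 1), grouped by role; each row is a gene, each point a library, and the grey line spans the lowest to the highest library. Smad3, Fst, Tgfbr3 and Bmp1 have both adult points to the left of both pup points, while Bmp3, Ltbp2 and Id1 have both adult points to the right; points of libraries at 0 lie on top of each other.

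Promoter sequences of 3 ID genes and of Ltbp2 are shown because the ID genes are the pathway's best-known targets and differed from each other between the ages, and because Ltbp2 was among the members higher in adult cells. Each is the stretch of 250 bases before the RefSeq gene start (GRCm38.p6), 5′ to 3′ on the gene's strand, with matches to the searched letters in capitals. The motifs were GGCGCC, the core of the GC-rich BMP response element, CAGAC (read as GTCTG on the other strand), the SMAD-binding element, and the palindrome GTCTAGAC, each on both strands. A GTCTAGAC holds part of the shorter element but no whole CAGAC or GTCTG.
Id2, chr12:25096093-25096342, minus strand: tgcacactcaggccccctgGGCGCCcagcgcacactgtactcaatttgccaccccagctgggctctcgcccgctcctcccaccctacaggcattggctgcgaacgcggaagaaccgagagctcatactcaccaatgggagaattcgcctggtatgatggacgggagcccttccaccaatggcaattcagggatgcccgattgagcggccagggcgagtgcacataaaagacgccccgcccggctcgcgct
Id3, chr4:136143572-136143821, plus strand: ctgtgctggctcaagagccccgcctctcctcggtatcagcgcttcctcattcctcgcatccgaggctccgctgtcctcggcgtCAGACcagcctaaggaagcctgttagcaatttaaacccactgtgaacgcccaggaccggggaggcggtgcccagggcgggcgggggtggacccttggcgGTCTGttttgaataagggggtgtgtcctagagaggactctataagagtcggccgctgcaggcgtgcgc
Id4, chr13:48260866-48261115, plus strand: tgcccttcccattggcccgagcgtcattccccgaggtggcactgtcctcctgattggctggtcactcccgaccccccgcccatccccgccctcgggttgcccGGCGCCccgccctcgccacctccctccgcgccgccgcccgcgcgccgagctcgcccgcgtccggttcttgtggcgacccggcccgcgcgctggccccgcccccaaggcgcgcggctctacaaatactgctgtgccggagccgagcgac
Ltbp2, chr12:84876492-84876741, minus strand: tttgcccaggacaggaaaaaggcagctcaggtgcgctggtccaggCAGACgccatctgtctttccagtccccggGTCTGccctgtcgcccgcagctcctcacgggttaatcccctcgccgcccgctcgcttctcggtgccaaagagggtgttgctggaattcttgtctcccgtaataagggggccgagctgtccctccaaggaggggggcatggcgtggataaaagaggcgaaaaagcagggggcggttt
The Id2 and Id4 windows each hold 1 GGCGCC, starting 231 and 148 bases before the gene start, and no CAGAC. The Id3 window holds CAGAC at 167 and GTCTG at 68 bases before the start, and the Ltbp2 window holds CAGAC at 205 and GTCTG at 176 bases before the start. RefSeq windows were matched to 35 of the 49 members (43 windows). GGCGCC was in 11 of the 43 windows and in 9.59% of all 32851 windows of the same length. CAGAC was in 20 of the 43 and in 42.2% of all windows, and GTCTAGAC in 0 of the 43 and in 0.167% of all windows. Such matches are letters in a window and were not tied to any binding measurement.

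Among the ligands, the BMP genes differed from each other in direction. Bmp3 encodes a BMP-family ligand known in bone for opposing osteogenic BMPs. It had 118 and 74.4 CPM in adult replicates 1 and 2, against 30.5 and 15.9 CPM in pup replicates 1 and 2. Both adult libraries were above both pups, with means of 96.2 ± 30.9 CPM in adults and 23.2 ± 10.3 CPM in pups (SD, n = 2 each) and a log2 fold change of 2.05 ± 0.56 (SE; edgeR adjusted p = 0.263, DESeq2 adjusted p = 0.0437). Bmp7, a ligand needed for kidney and eye development in the mouse, went the other way. It had 9.04 and 14.7 CPM in adults, against 54.5 and 103 CPM in pups. Both adult libraries were below both pups, with a log2 fold change of -2.73 ± 0.59 (SE; edgeR adjusted p = 0.213, DESeq2 adjusted p = 0.00102). Bmp1, the protease that trims procollagens and cleaves chordin, had 32.7 and 75.1 CPM in adults, against 215 and 260.2 CPM in pups. Its log2 fold change was -2.14 ± 0.62 (SE; edgeR adjusted p = 0.272, DESeq2 adjusted p = 0.00401), again without overlap between the ages.

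Inha, the alpha subunit of inhibin, had 0 counts in both adult libraries, against 49 and 74 counts in the pups, with an estimated background of 20.6 counts in pup replicate 1. Set against a floor of 3 counts over both adults together, it was at least 39.1-fold lower in adult cells, and at least 34.9-fold lower with pup replicate 2 as the only pup library. DESeq2 called it at an adjusted p of 0.0284, while edgeR gave an adjusted p of 0.284. The activin subunits Inhba and Inhbb overlapped between the ages. Inhba had 6.21 and 5.83 CPM in adults, against 19.4 and 5.41 CPM in pups. Inhbb was carried by 1 library, with 0.843 and 12.9 CPM in adults, against 1.73 and 0.158 CPM in pups.

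Bmp4, a mesenchymal ligand in many developing organs, was absent from 1 adult library. It had 0 and 29.8 CPM in adult replicates 1 and 2, against 45.7 and 50.3 CPM in pups. Gdf10, a ligand close to BMP3 in sequence, had 1.15 and 146 CPM in adults, against 59.2 and 114 CPM in pups. The spread between the adults was thus larger than that between the ages, and the log2 fold change of Gdf10 was -0.24 with all libraries, 0.71 without adult replicate 1 and -6.23 without adult replicate 2. For Bmp4 it was -1.69 with all libraries, -0.73 without adult replicate 1 and -12.37 without adult replicate 2, a value that depends on the prior count because the remaining adult library was at 0. Bmp4 had the library order of the fibroblast marker sum. Gdf10 did not, being highest in adult replicate 2, but shared with that sum its lowest value in adult replicate 1, and the part of fibroblast RNA in both was not tested. Among the rest, Bmp6 had 10.04 and 22.4 CPM in adults, against 8.44 and 1.996 CPM in pups, without overlap, although 54.5 of its 78 counts in pup replicate 1 were estimated as background. Bmp2 overlapped between the ages, with 4.90 and 19.1 CPM in adults, against 4.55 and 9.46 CPM in pups. Gdf11, a ligand of activin receptors that patterns the axial skeleton, had 3.45 and 2.09 CPM in adults, against 20.9 and 5.10 CPM in pups, with a log2 fold change of -2.23 ± 1.38 (SE; edgeR adjusted p = 0.545) that was -0.88 without pup replicate 1. Bmp5 was seen in 1 library of each age, with 26 counts in adult replicate 2 and 101 in pup replicate 1, of which 56.3 were estimated as background, and 46.7% of its exon length is shared with Gm26903, from which unstranded reads cannot be told apart.

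The TGF-beta ligands overlapped between the ages. Tgfb3 had 55.1 and 95.6 CPM in adults, against 85.7 and 201 CPM in pups, with a log2 fold change of -0.93 ± 0.62 (SE; edgeR adjusted p = 0.580); 12.4% of its exon length is shared with other annotated genes. Tgfb2 had 26.8 and 99.8 CPM in adults, against 80.4 and 119.8 CPM in pups, with a log2 fold change of -0.66 ± 0.70 (SE; edgeR adjusted p = 0.754). Tgfb1 was the lowest of the 3 per kb of exon in every library, with 0.942 and 2.41 CPM per kb in adults, against 4.66 and 2.05 CPM per kb in pups. Tgfb3 made up 74.5% and 59.0% of the summed TGF-beta ligand level per kb in adults, against 57.7% and 72.3% in pups, so the leading isoform was the same gene in all 4 libraries.

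**Figure D2:**
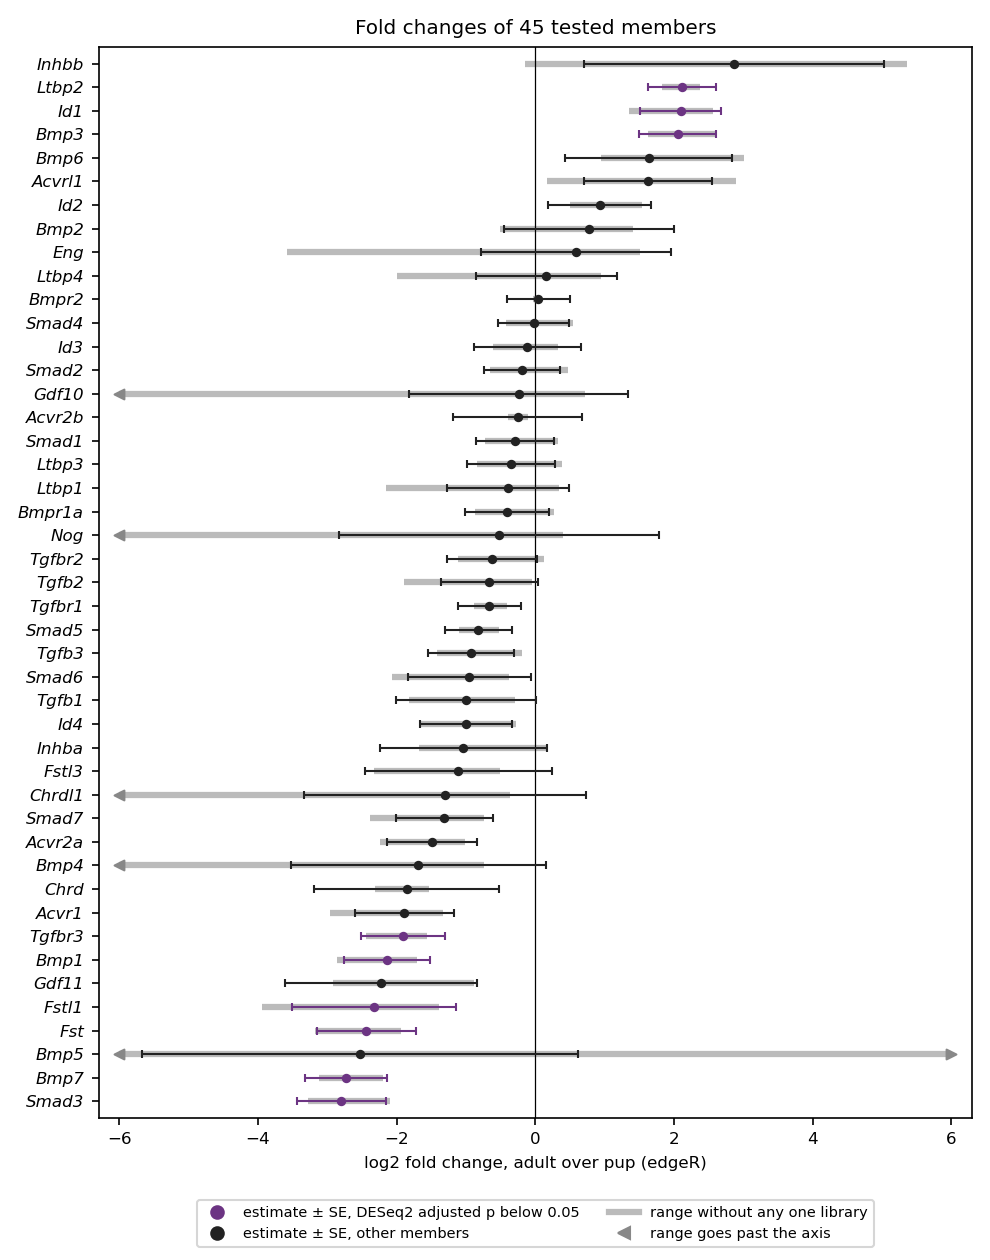
Log2 fold changes of 45 tested members, adult over pup, from edgeR; points with thin bars are estimates ± SE, purple marks a DESeq2 adjusted p below 0.05, and the wide grey bars span the estimates with each library left out in turn. Inha, at 0 counts in adults, is not drawn. The grey bars of Bmp3, Ltbp2 and Id1 stay right of 1 and those of Smad3, Bmp7, Fst, Fstl1, Bmp1 and Tgfbr3 stay left of -1, while those of Gdf10, Eng and Ltbp4 cross 0.

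Of the receptors, the co-receptor Tgfbr3 was the one DESeq2 called. Tgfbr3, or betaglycan, presents TGF-beta2 to the signalling receptors and binds inhibin. It had 53.0 and 99.999 CPM in adults, against 241 and 333 CPM in pups. Both adult libraries were below both pups, with means of 76.5 ± 33.2 CPM in adults and 287 ± 64.6 CPM in pups (SD, n = 2 each) and a log2 fold change of -1.91 ± 0.61 (SE; edgeR adjusted p = 0.284, DESeq2 adjusted p = 0.00493). Among the signalling receptors, the pair of highest mean CPM overlapped between the ages. Tgfbr2, the type II receptor for TGF-beta, had 159 and 195 CPM in adults, against 163 and 383 CPM in pups, and its log2 fold change was -0.62 ± 0.65 (SE; edgeR adjusted p = 0.749). Bmpr1a, a type I BMP receptor, had 169 and 121 CPM in adults, against 121 and 265 CPM in pups, and its log2 fold change was -0.41 ± 0.61 (SE; edgeR adjusted p = 0.833). Without pup replicate 2 both estimates turned slightly positive, 0.12 for Tgfbr2 and 0.27 for Bmpr1a. Bmpr2, the type II BMP receptor, had the receptors' smallest ratio of highest to lowest library, with 44.4 and 49.6 CPM in adults, against 46.1 and 45.1 CPM in pups. In pup replicate 1, however, 252 of its 426 counts were estimated as background, and with that subtracted its log2 fold change was 0.38 in place of 0.04.

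Acvr1, the type I receptor also called ALK2, had 5.75 and 18.4 CPM in adults, against 46.2 and 43.2 CPM in pups, without overlap and with a log2 fold change of -1.89, close to that of Tgfbr3. Acvr2a, a type II activin receptor, had 23.5 and 10.4 CPM in adults, against 34.4 and 60.6 CPM in pups, also without overlap. Tgfbr1, the type I TGF-beta receptor, lay below both pups in both adults by a smaller margin, with 57.9 and 55.9 CPM in adults, against 75.9 and 104 CPM in pups. Acvr2b had 10.6 CPM in each adult library, against 14.0 and 11.3 CPM in pups. Of its 129 counts in pup replicate 1, 54.9 were estimated as background. With that subtracted and the scaling unchanged, Acvr2b there stood at 2.04 CPM per kb, below both adults at 2.69 CPM per kb. Bmpr1b had 0 counts in both adults, against 107 and 1 counts in the pups, and background was estimated at 83.4 of the 107. It did not pass the filter on low counts, and no difference could be read from it at this depth.

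Eng and Acvrl1, a co-receptor and a type I receptor known mainly from endothelial cells, varied within the adults. Eng had 8.89 and 309.6 CPM in adult replicates 1 and 2, against 56.5 and 156 CPM in pups. Its log2 fold change was 0.58 with all libraries, 1.51 without adult replicate 1 and -3.58 without adult replicate 2, where edgeR called it lower in adult cells (adjusted p = 0.0248) from 1 adult library, with a spread taken from the pups alone. Acvrl1 had 30.3 and 135 CPM in adults, against 11.1 and 42.6 CPM in pups (59.7 of 103 counts in pup replicate 1 estimated as background), with log2 fold changes of 2.30 without adult replicate 1 and 0.17 without adult replicate 2. Adult replicate 2 was also the library with the highest endothelial markers, 852 CPM in sum, and the part of endothelial RNA in its Eng and Acvrl1 was not tested. In adult replicate 1, Acvrl1 was measured with 6 of the 7 endothelial markers at 0. In pup replicate 2, Eng stood at 156 CPM with an endothelial sum of 7.30 CPM and counts in 5 of the 7 endothelial markers.

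All 6 tested antagonists had a negative log2 fold change, with a median of -1.58, and 5 of them had both adult libraries below both pups, against 57.1% and 27.1% of all genes tested. For 3 of the 5, background made up much of the count in pup replicate 1: 87.5 of 116 for Chrd, 94.5 of 176 for Chrdl1 and 34.2 of 75 for Fstl3. With it subtracted and the scaling unchanged, these 3 overlapped between the ages. Pup replicate 1 then lay below adult replicate 2 for Chrdl1 (1.30 against 1.96 CPM per kb) and Fstl3 (1.81 against 2.97 CPM per kb). For Chrd, pup replicate 1 lay below adult replicate 1 (0.492 against 0.588 CPM per kb). Fst, or follistatin, which binds activins and some BMPs, had 98.2 and 43.7 CPM in adults, against 273 and 497 CPM in pups. Its means were 70.9 ± 38.5 CPM in adults and 385 ± 159 CPM in pups (SD, n = 2 each), and its log2 fold change was -2.44 ± 0.71 (SE; edgeR adjusted p = 0.273, DESeq2 adjusted p = 0.00233). Fstl1, a secreted glycoprotein of the follistatin family that is abundant in mesenchyme, had the highest CPM of the antagonists in 3 of the 4 libraries. It had 97.6 and 501 CPM in adults, against 785 and 2219 CPM in pups, and its log2 fold change was -2.33 ± 1.19 (SE; edgeR adjusted p = 0.453, DESeq2 adjusted p = 0.0478). The order of Fstl1 over the libraries was that of the fibroblast marker sum, whose part in it was not tested. Fst did not follow that order, since adult replicate 1 was above adult replicate 2. Its library order was instead that of the basal markers Krt14 and Trp63. Krt14 had 736 and 253 CPM in adults, against 1257 and 2849 CPM in pups. Trp63 had 64.1 and 12.5 CPM in adults, against 127 and 189 CPM in pups. The rest of the basal and myoepithelial list did not have this order. In Krt5, Acta2, Myh11 and Cnn1, adult replicate 1 lay above pup replicate 1, as in the sum of the list (5127 against 4898 CPM). Oxtr had counts in pup replicate 1 alone. The part of basal cell RNA in Fst was not tested.

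The classical BMP antagonists were low. Chrd, or chordin, had 3.68 and 2.23 CPM in adults, against 12.6 and 8.88 CPM in pups. Of its 116 counts in pup replicate 1, 87.5 were estimated as background, and with that subtracted its level there, 0.492 CPM per kb, lay between the adults at 0.588 and 0.357 CPM per kb, and its log2 fold change was -1.16 in place of -1.86. Nog, or noggin, had 0 to 21 counts in any library, overlapped between the ages and changed sign with a library left out, and Grem1 had a count in pup replicate 1 alone, 20 counts where 58.0 were estimated from background. Chrdl1, a chordin-like BMP antagonist, had 0 and 13.3 CPM in adults, against 19.1 and 13.7 CPM in pups. Its log2 fold change was -1.30 with all libraries and -0.36 without adult replicate 1, and its call without adult replicate 2 rests on the 0 counts of 1 adult library. Fstl3 had 1.99 and 7.27 CPM in adults, against 8.12 and 11.9 CPM in pups, and 47.3% of its exon length is shared with Prss57.

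The LTBPs held one member on the higher side. Ltbp2, which unlike its relatives is known as a microfibril protein more than as a carrier of latent TGF-beta, had 121 and 88.5 CPM in adults, against 28.0 and 20.1 CPM in pups. Both adults were above both pups, with means of 105 ± 22.8 CPM in adults and 24.1 ± 5.59 CPM in pups (SD, n = 2 each) and a log2 fold change of 2.12 ± 0.49 (SE; edgeR adjusted p = 0.232, DESeq2 adjusted p = 0.00891). Ltbp4, a carrier of latent TGF-beta and a helper of elastic fibre assembly, had 80.9 and 638 CPM in adults, against 226 and 418 CPM in pups. Its log2 fold change was 0.16 ± 1.02 (SE; edgeR adjusted p = 0.967) and changed sign to -1.99 without adult replicate 2 and to -0.01 and -0.18 under upper-quartile scaling and library totals. Ltbp1 and Ltbp3 overlapped between the ages. Ltbp1 had 38.1 and 219.5 CPM in adults, against 110 and 228 CPM in pups, and Ltbp3 had 93.8 and 158 CPM in adults, against 96.2 and 225 CPM in pups. In Ltbp1 and Ltbp4, as in the fibroblast marker sum, adult replicate 1 was the lowest of the 4 libraries. Neither had the full library order of that sum, since adult replicate 2 lay above pup replicate 1 in both. The part of fibroblast RNA was not tested.

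**Figure D3:**
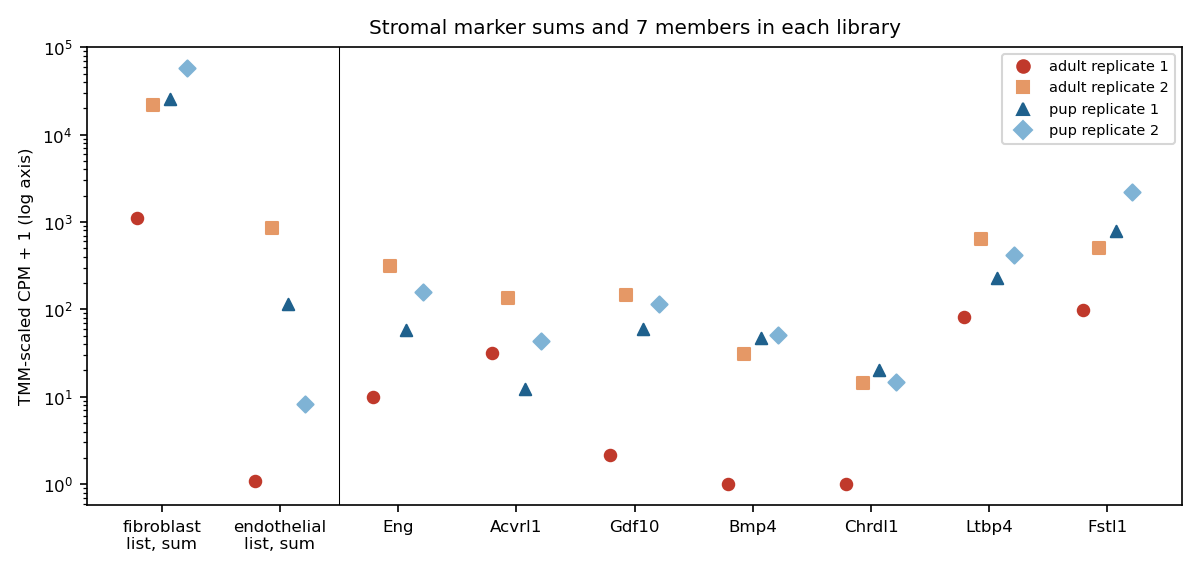
TMM-scaled CPM plus 1, on a log axis, of the summed fibroblast and endothelial marker lists (left of the line) and of 7 members (right), one point per library. Adult replicate 1 has the lowest fibroblast sum (1117 CPM) and the lowest level of Gdf10, Bmp4, Chrdl1, Ltbp4 and Fstl1, and adult replicate 2 has the highest endothelial sum (852 CPM) and the highest Eng and Acvrl1.

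All 7 tested SMADs had a negative log2 fold change, with a median of -0.82, and in 4 both adults were below both pups, against 57.1% and 27.1% of all genes tested; the values of Smad1, Smad2 and Smad4 turned positive with one or another library left out. Smad3, an effector of TGF-beta and activin, was the lowest of them in adult cells relative to pups. It had 8.05 and 14.2 CPM in adults, against 47.4 and 107 CPM in pups. Its means were 11.1 ± 4.34 CPM in adults and 77.3 ± 42.3 CPM in pups (SD, n = 2 each), with a log2 fold change of -2.80 ± 0.65 (SE; edgeR adjusted p = 0.232, DESeq2 adjusted p = 0.00227). Its close relative Smad2 overlapped between the ages, with 43.6 and 39.7 CPM in adults, against 29.98 and 65.3 CPM in pups. Smad4, the common partner, had 77.9 and 71.2 CPM in adults, against 51.2 and 99.9 CPM in pups, and its log2 fold change of -0.02 ± 0.51 (SE; edgeR adjusted p = 0.991) changed sign with the left-out library. Smad1 had 42.8 and 68.0 CPM in adults, against 44.05 and 91.5 CPM in pups, with a log2 fold change of -0.29 ± 0.56 (SE; edgeR adjusted p = 0.873). Smad5 lay below both pups in both adults, with 45.7 and 33.6 CPM in adults, against 57.03 and 83.1 CPM in pups.

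The inhibitory SMADs are themselves induced by the pathway. Smad7 had 23.8 and 76.2 CPM in adults, against 85.3 and 163 CPM in pups, with a log2 fold change of -1.31 ± 0.70 (SE; edgeR adjusted p = 0.474). Smad6, which acts mainly on BMP receptors, had 4.98 and 16.6 CPM in adults, against 19.8 and 21.96 CPM in pups. Neither overlapped between the ages, although adult replicate 2 lay close to the lower pup in both. For Smad6, 44.8 of 183 counts in pup replicate 1 were estimated as background. With that subtracted and the scaling unchanged, Smad6 there stood at 4.67 CPM per kb, below adult replicate 2 at 5.17 CPM per kb. Smad9 had 10 counts in pup replicate 1, where 75.1 were estimated from background, and 0 elsewhere, so the BMP-type SMAD RNA measured was that of Smad1 and Smad5.

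The ID genes, whose proteins bind basic helix-loop-helix factors and keep them from DNA, did not move together. Id1 had 199.8 and 89.1 CPM in adults, against 28.4 and 39.0 CPM in pups. Both adults were above both pups, with means of 144 ± 78.3 CPM in adults and 33.7 ± 7.55 CPM in pups (SD, n = 2 each) and a log2 fold change of 2.10 ± 0.59 (SE; edgeR adjusted p = 0.264, DESeq2 adjusted p = 0.0213). Id2 had 460.3 and 714 CPM in adults, against 203 and 414 CPM in pups, so its ages did not overlap either, with a log2 fold change of 0.93 ± 0.75 (SE; edgeR adjusted p = 0.660). Id3 had 658 and 373 CPM in adults, against 412 and 703 CPM in pups, and its log2 fold change was -0.11 ± 0.77 (SE; edgeR adjusted p = 0.968). Id4 had 121 and 57.2 CPM in adults, against 108 and 249.1 CPM in pups, and its log2 fold change was -1.001 ± 0.66 (SE; edgeR adjusted p = 0.578). Per kb of exon, Id2 and Id3 were among the 3 highest members in every library, at 189 and 293 CPM per kb for Id2 and 367 and 208 CPM per kb for Id3 in adults, against 83.2 and 170 CPM per kb for Id2 and 229.9 and 393 CPM per kb for Id3 in pups.

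Ratios between relatives within a library do not depend on the scaling between libraries, and the pairs below were chosen after their values were seen, as a description with no test. Smad3 over Smad2, in CPM per kb, was 0.292 and 0.565 in adults, against 2.51 and 2.60 in pups, so that Smad2 RNA exceeded Smad3 RNA in both adults and Smad3 exceeded Smad2 in both pups. Bmp3 over Bmp7 was 7.09 and 2.75 in adults, against 0.304 and 0.0837 in pups. Id1 over Id4 was 5.47 and 5.17 in adults, against 0.871 and 0.520 in pups, and Id1 over Id3 was 0.469 and 0.368 in adults, against 0.106 and 0.0857 in pups. Tgfbr3 over Tgfbr2 was 0.417 and 0.641 in adults, against 1.85 and 1.09 in pups. The antagonist Fst stood at 1.34 and 0.947 times the level of Bmp3 per kb in adults, against 14.4 and 50.3 times in pups. With the background of pup replicate 1 subtracted, its Smad3 over Smad2 was 3.70, its Bmp3 over Bmp7 0.217 and its Id1 over Id4 0.864, each still apart from both adults.

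Shares of a family were computed from the same levels per kb, so they restate these differences and add no support. Among the TGF-beta ligands, the co-receptors and the inhibitory SMADs, the share of every member overlapped between the ages. Bmp3 made up 72% and 26.1% of the summed level per kb of Bmp2 to Bmp7 in adults, against 9.34% and 4.03% in pups, and Bmp7 made up 10.2% and 9.48% in adults, against 30.7% and 48.1% in pups. Bmp4 made up 0% and 34.4% of the family in adult replicates 1 and 2, against 45.99% and 41.9% in pups. The higher share of Bmp3 in adult replicate 1 than in adult replicate 2 did not come from Bmp4 alone. Bmp3 itself was higher there, at 16.0 against 10.1 CPM per kb, and Bmp2, Bmp6 and Bmp7 were lower. Smad3 made up 7.48% and 11.4% of the receptor SMADs in adults, against 31.8% and 36.8% in pups. Id1 made up 22.7% and 12.9% of the ID family in adults, against 6.69% and 5.09% in pups. The summed level of the family was less distinct: the ID genes together came to 759.8 and 593 CPM per kb in adults, against 366 and 661 CPM per kb in pups, and the BMP ligands to 22.2 and 38.5 CPM per kb in adults, against 44.2 and 53.4 CPM per kb in pups.

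**Figure D4:**
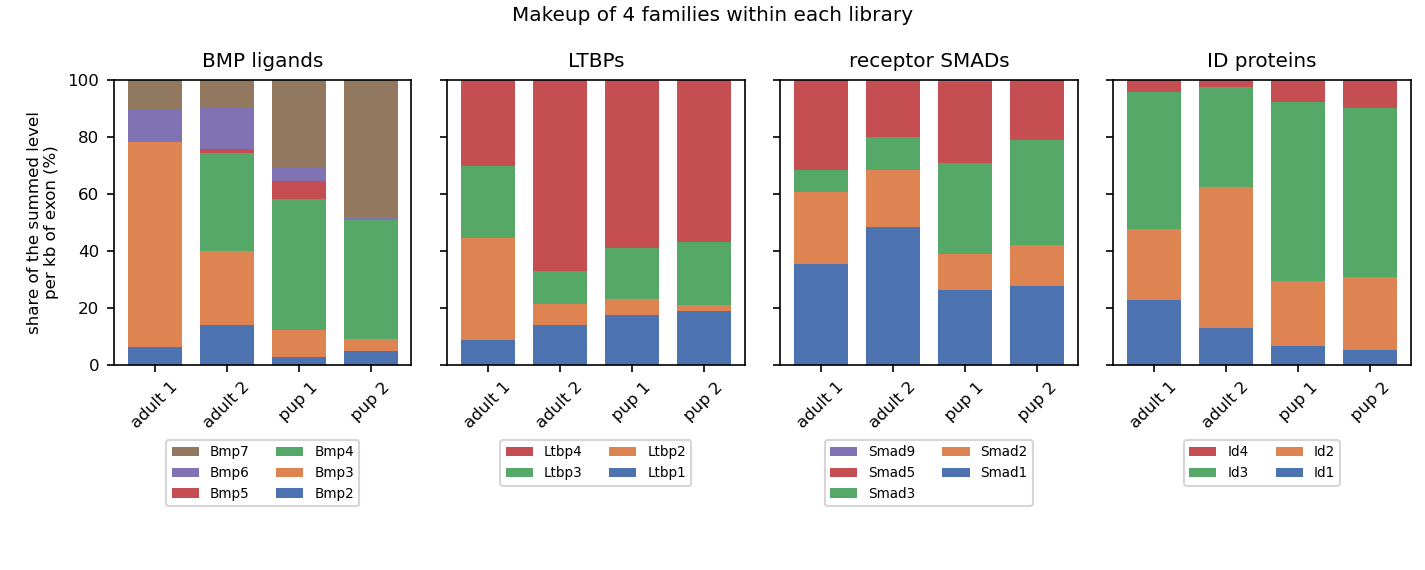
Share of the summed level per kb of exon, in percent, that each gene took of its family within each library (BMP ligands Bmp2 to Bmp7, LTBPs, receptor SMADs and ID proteins). Bmp3, Ltbp2 and Id1 take a larger share in both adults than in both pups, and Bmp7 and Smad3 a smaller one, with Smad3 at 7.48% and 11.4% in adults against 31.8% and 36.8% in pups.

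Of 74 other genes of the pathway on a wider list, 54 passed the filter on low counts, with 19 positive and 35 negative log2 fold changes and a median of -0.36. Both adult libraries lay above both pups for 13.0% of them and below for 27.8%, against 21.8% and 27.1% of all genes tested. Here edgeR called 0, and DESeq2 called 3 higher and 3 lower in adult cells, 5.56% each way, against 3.74% and 5.28% of all genes tested. Runx2, a transcription factor of bone known as a BMP target, had 148 and 123 CPM in adults, against 30.4 and 27.8 CPM in pups, with a log2 fold change of 2.22 ± 0.46 (SE; edgeR adjusted p = 0.208, DESeq2 adjusted p = 0.000753). Bmp8a, a further BMP ligand, had 48.2 and 22.2 CPM in adults, against 2.71 and 0.263 CPM in pups. In pup replicate 1 it had 25 counts, where 33.6 were estimated from background. Its reads may be shared with the close copy Bmp8b, which had counts in pup replicate 1 alone. Nedd4l, a ubiquitin ligase that acts on activated SMAD2 and SMAD3 and on the epithelial sodium channel, had 301 and 147 CPM in adults, against 65.6 and 50.5 CPM in pups. On the lower side, Kcp, a chordin-like modulator of BMP signalling, had 0.766 and 2.74 CPM in adults, against 32.6 and 31.0 CPM in pups, and 109 of its 301 counts in pup replicate 1 were estimated as background. Bmper, a secreted BMP-binding protein, had 0 and 4 counts in adults, against 68 and 316 counts in pups, with 67.6 of the 68 in pup replicate 1 estimated from background. Gdf9, an oocyte-derived ligand, had 0 and 13 counts in adults, against 390 and 31 counts in pups, so that its difference rested mainly on pup replicate 1.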

How the data were processed

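The authors deposited 1 file of unnormalized read counts per library, keyed by Ensembl gene ID. Per the submitters' processing notes the tools were cutadapt 1.18, STAR 2.5.2a, HTSeq 0.11.0, R 3.5.1 and DESeq2 1.20.0 with the build GRCm38; no source used here gives the options, strand setting or annotation release. Per the labels' protocols, libraries were made with the SMART-Seq HT kit, which amplifies full-length cDNA by PCR and does not mark strand. HTSeq's tallies of unassigned reads, 31.5% to 84.4% of all reads tallied, were left out. Another 2 tables, of the whole series, were not used, because their 8 columns of values carry names that fit no one sample.

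Symbols, exon lengths and overlaps came from GENCODE vM21 (53360 of 53465 IDs matched), promoter windows from RefSeq (GRCm38.p6). Counts were analysed in R 4.3.3 with edgeR 4.0.16: TMM factors, the filter filterByExpr at a minimum count of 10 and a total of 15, a design with age alone, the quasi-likelihood F test and Benjamini-Hochberg adjustment over all 16320 genes tested, at 0.05. The common biological coefficient of variation was 0.895. Log2 fold changes are adult over pup. Sample titles gave the groups and the replicate numbers. Replicates differed by more than sampling noise, with a chi-square per degree of freedom of 244 between adults and 182 between pups. With few reads per low gene, counting error adds to these limits.

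Alternatives were DESeq2 1.42.0, limma-voom (limma 3.58.1), other scalings, filters and an adjusted p of 0.1, a replicate block, each library left out, and background subtraction in pup replicate 1; its use for ratios was chosen after seeing the data. Members and lists were chosen with earlier results of these data known. Full statistics are given for members called by either tool, those with ages apart and an absolute log2 fold change of at least 2, and the 3 of highest mean CPM per role. The list entries Hjv and Cripto matched no symbol.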

Additional observations from a re-analysis of the deposited data

How the results depend on the processing

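No member was called by edgeR under any scaling, filter, block or background subtraction tried. Against 0 genes called either way with the settings above, edgeR called 284 higher and 231 lower in adult with no filter beyond 1 count, and 13 higher and 2 lower with 10 counts asked of every library of an age; DESeq2 called 610 higher and 862 lower, among them 3 and 7 members. With each library left out, genes called higher ranged from 0 to 247, genes called lower from 0 to 733, members called lower from 0 to 6 and the median log2 fold change of members from -1.46 to -0.37. The median of all genes moved by -0.07 with the size factors of DESeq2, by -0.18 with upper-quartile factors and by -0.38 with library totals, and the members' median stayed 0.41 to 0.44 below it. Of the 46 members, 29 kept their sign in all 13 settings (6 higher, 23 lower). Most of these settings refit the same libraries, and the matching share of all genes tested was not counted. Signs turned for Ltbp4, at -0.0146 with upper-quartile factors, -0.18 with library totals, -0.0183 with background subtracted, -0.40 with limma-voom and -1.99 to 0.95 with a library left out, and for Smad4, at 0.0734 with no filter, 0.0865 with limma-voom and -0.43 to 0.54 with a library left out. In all, 17 members lost their sign in some setting. Leaving out a library turned, among others, Bmpr1a (-0.87 to 0.27), Tgfbr2 (-1.12 to 0.12), Smad1 (-0.73 to 0.33) and Id3 (-0.62 to 0.32). Wider ranges across 0 were those of Bmp5 (-9.23 to 6.85), Nog (-6.92 to 0.40), Gdf10 (-6.23 to 0.71), Inhbb (-0.14 to 5.37) and Eng (-3.58 to 1.51). The cause was not tested.

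The main design did not pair samples by replicate number, since nothing in the labels ties the numbers. Across genes, same-numbered samples' deviations from the age means correlated at -0.0982. With 2 libraries per age, this value cannot exclude a batch shared by same-numbered samples. With the replicate block edgeR called 0 genes, the members' median was -0.84, Ltbp4 was at -0.43 and Smad4 at 0.0578. Depth and background limit the members of low count, 12 of which had over 50% of their count in pup replicate 1 estimated as background.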

Other observations

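Several other pathway genes at high levels differed little between the ages. Junb, an immediate early gene that TGF-beta induces, had 1368 and 2084 CPM in adults, against 1151 and 2372 CPM in pups, and overlapped between the ages. Twsg1, a secreted partner of chordin, had 399.96 and 307 CPM in adults, against 318 and 569.5 CPM in pups. Ccn2, a matrix-associated protein induced by TGF-beta, had 208 and 429 CPM in adults, against 433 and 427 CPM in pups. Tgif1, a repressor that binds SMAD2 and SMAD3, had 267 and 442 CPM in adults, against 164 and 300.05 CPM in pups.

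Neo1, a receptor for repulsive guidance molecules that modulates BMP signalling, had 30.7 and 56.95 CPM in adults, against 90.7 and 157 CPM in pups, without overlap and with a log2 fold change of -1.497 ± 0.56 (SE; edgeR adjusted p = 0.301). Gdf15, a stress-induced member of the superfamily, had 4.83 and 5.69 CPM in adults, against 15.3 and 44.3 CPM in pups, with a log2 fold change of -2.50 ± 0.86 (SE; edgeR adjusted p = 0.284). The repulsive guidance molecule Rgmb was close between the ages, with 57.6 and 59.2 CPM in adults, against 59.7 and 97.1 CPM in pups. Nbl1, a secreted BMP antagonist, had 50.5 and 194 CPM in adults, against 183 and 340.5 CPM in pups.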
